A study of Mus musculus with 12 samples.

Results

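The 48 genes described here are effectors that interferon is known to switch on, among them Isg15, the OAS, IFIT, MX, GBP, IRG and APOL9 families, without the IRF and STAT factors, the RNA and DNA sensors and the antigen presentation genes. They were picked by symbol from a table of 24934 genes in BV2 cells, and all 48 have a row. Of these, 44 had enough reads to be among the 13249 genes tested, and Mx1, Ddx60, Ifi44 and Zbp1 did not. The fold changes of the comparisons below were known when the list was drawn up, so counts and medians over it are a description, set beside the same value for all genes tested.

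BV2 is a microglial line made by immortalising mouse microglia with a retrovirus carrying oncogenes, and a culture of it holds no neurons, astrocytes or blood vessels. The 3 groups of 4 libraries each are cells labelled Control, cells put through oxygen-glucose deprivation and re-oxygenation (OGD), a culture model of stroke and reperfusion, and cells labelled Acacetin. The labels give that last group the name of the flavonoid alone, and the series text says that cells of the OGD model were then given 10 µM acacetin, so the group is taken here as OGD followed by acacetin. The length of the deprivation, of re-oxygenation and of the treatment and the solvent are not given in the sources used here, and the labels do not tie the 4 libraries to separate cultures, so p-values measure only the spread between these libraries, which may be technical.

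Type I interferons bind the receptor made of IFNAR1 and IFNAR2, whose kinases JAK1 and TYK2 pass the signal on by phosphorylation. A complex that contains IRF9 then binds the interferon-stimulated response element, a paired GAAA motif in front of many of the genes described here. Interferon gamma acts on a different element, TTCNNNGAA, and both routes meet on several genes. In microglia an interferon-induced state is known after viral infection, in ageing and after ischaemia.

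The element is printed for some of the members that hold it, called or not, as RefSeq's table of gene starts gives it for GRCm38.p6. That is not the GRCm39 build of the count table. Of the 48 members, 36 had an entry. A search of the 250 bases before each start for GAAANNGAAA on either strand (TTTCNNTTTC where it lies on the other strand, overlapping matches counted separately) found it at a listed start of 17 of the 36, or 47.2%, against 936 of 27025 genes, or 3.46%. TTCNNNGAA was found in 7 of the 36, or 19.4%, against 8.13% of all genes. The element was defined on interferon-induced genes, so a higher share among them describes the list. In the stretches that follow, read 5′ to 3′ on the gene's strand, capitals mark bases covered by a match to the first motif.
Isg15 (chr4:156200863-156200908, minus strand): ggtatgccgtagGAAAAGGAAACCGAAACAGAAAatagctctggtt
Apol9a (chr15:77411112-77411151, minus strand): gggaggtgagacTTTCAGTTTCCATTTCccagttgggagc
Apol9b (chr15:77729023-77729062, plus strand): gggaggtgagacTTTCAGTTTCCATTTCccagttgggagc
Irgm1 (chr11:48871423-48871462, minus strand): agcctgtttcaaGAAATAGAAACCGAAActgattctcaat
Igtp (chr11:58199510-58199543, plus strand): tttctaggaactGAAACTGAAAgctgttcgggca
Gbp2 (chr3:142620592-142620625, plus strand): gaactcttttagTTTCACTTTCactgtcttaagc
Ifit1 (chr19:34640773-34640825, plus strand): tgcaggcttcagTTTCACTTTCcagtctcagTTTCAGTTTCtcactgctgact
Ifit3 (chr19:34583361-34583428, plus strand): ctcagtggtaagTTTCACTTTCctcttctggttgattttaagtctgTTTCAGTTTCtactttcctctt
Ifit3b (chr19:34607757-34607824, plus strand): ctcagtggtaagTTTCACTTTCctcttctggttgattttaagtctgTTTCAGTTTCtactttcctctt
Oas1a (chr5:120907526-120907557, minus strand): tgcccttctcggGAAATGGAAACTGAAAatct
Oas3 (chr5:120777713-120777746, minus strand): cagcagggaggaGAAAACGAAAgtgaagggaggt
Bst2 (chr8:71537575-71537614, minus strand): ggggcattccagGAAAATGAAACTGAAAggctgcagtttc
Rsad2 (chr12:26456551-26456584, minus strand): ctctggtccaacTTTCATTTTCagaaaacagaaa
Isg15 held 3 overlapping matches and Bst2, Oas1a, Irgm1 and both Apol9 genes held 2, which share 4 bases where they overlap. The Apol9a and Apol9b windows are the same 40 bases, and over the 228 bases that their promoters have in common all 228 were identical. Ifit3 and Ifit3b matched at 188 of 218 bases, or 86.2%. A match says only that these letters are present.

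**Figure D1:**
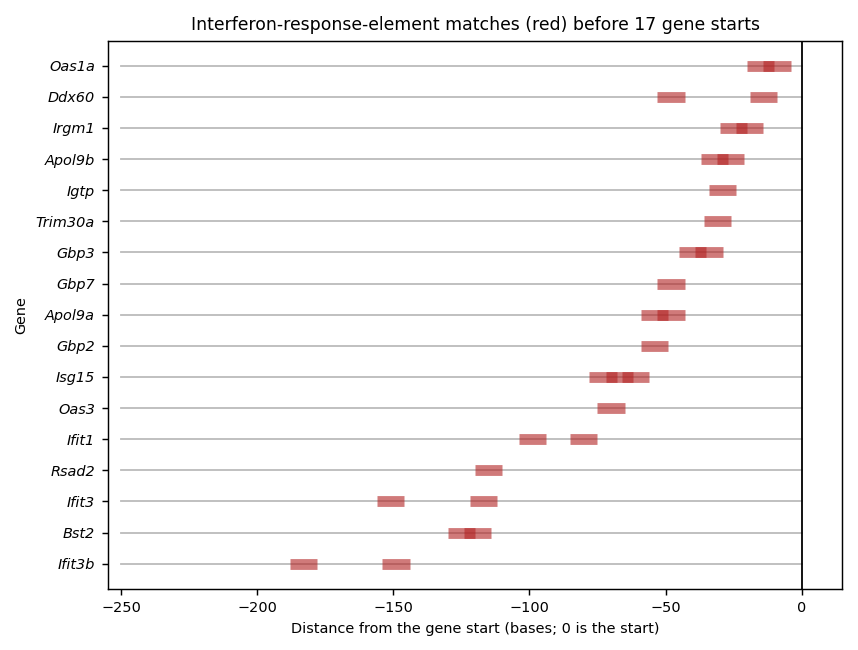
Positions of GAAANNGAAA matches on either strand (red, 10 bases each, darker where 2 overlap) in the 250 bases before the start of the 17 members that hold one; the horizontal axis is the distance from the gene start in bases. The matches of Oas1a lie closest to the start and those of Ifit3b farthest from it.

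The libraries held 16427886 to 32693066 counts, and none of the 18 pairs of libraries within a group were identical. Depth aside, single libraries stood apart in 3 ways: 18S rRNA took 13.1% of counts in OGD 2 and 21.3% in OGD 3 against 0.137% to 1.86% elsewhere, mitochondrial genes took 1.27% in Acacetin 3 against at most 0.778% in the others, and long genes were read more strongly than short ones in Acacetin 3 (slope of log2 level on log2 gene length of 0.26, against -0.18 in Acacetin 1). The mitochondrial share also moved with the groups, at 0.377% to 0.514% in Control, 0.486% to 0.566% in OGD and 0.667% to 1.27% in Acacetin, and its part in the Acacetin comparisons was not tested. Levels below are CPM, counts scaled to a common TMM-adjusted library size, listed for replicates 1 to 4 of each group. Of 14 microglial and macrophage markers 13 were tested, with Lyz2 at mean levels of 1468 to 1922 CPM over the groups, while P2ry12, a marker of resting microglia in the brain, was near 0 (0.0083 to 0.079 CPM). Of 22 markers of astrocytes, neurons, oligodendrocytes, endothelium, fibroblasts, T cells and plasmacytoid dendritic cells, 18 had a row and 5 passed the filter, and their summed level was 8.69 to 11.7 CPM in Control, 6.56 to 8.59 in OGD and 5.74 to 6.87 in Acacetin.

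Of the 44 tested effectors 17 rose and 1 fell after OGD against Control at an edgeR adjusted p under 0.05, where 16.2% of all genes tested rose and 12.6% fell, 28.8% in all. On log2(FPKM + 1) with limma, 13 members rose and 1 fell, where 6.88% of all genes rose and 14.5% fell. Calls of higher level were 32.2% of all calls on that scale, against 56.3% in edgeR. In the edgeR fit the median log2 fold change of the members was 0.81, against 0.03 over all genes. There 37 of 44 lay above 0, against 51.6%. In Acacetin against OGD, edgeR called none of the 13249 genes (0%), members included. There the median of the members was -0.52 against -0.02, 35 of 44 lay below 0 against 52.5%, and in 20 of 44 all 4 Acacetin libraries lay below all 4 OGD libraries, against 1.88% of all genes. The summed level of the members was 2839 to 3446 CPM in Control, 3448 to 3895 in OGD and 2160 to 3653 in Acacetin. In bulk RNA fewer expressing cells and less RNA per cell cannot be told apart.

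The 2 comparisons with OGD use the same 4 OGD libraries, so a high OGD value enters each of them. At an unadjusted p under 0.05 edgeR gave 22 members in Acacetin against OGD, of 685 genes or 5.17% of those tested. All 22 were lower, against 3.25% of genes lower and 1.92% higher, and no member lay above OGD without overlap, against 0.468%. DESeq2's Wald test, the alternative tool, called 29 genes lower (0.21% of 13804) and 3 higher (0.0217%), and 10 of the 29 were members: Apol9a, Apol9b, Isg15, Usp18, Cmpk2, Isg20, Ly6a, Parp12, Xaf1 and Lgals3bp. Leaving out Acacetin 1, edgeR called 5 members lower (Apol9a, Isg15, Isg20, Ly6a and Xaf1), of 9 genes lower and none higher in all. Without Control 3, which enters only through the shared estimate of spread, it called 1 member, Apol9a, of 2 genes lower and 1 higher in all.

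In Acacetin against Control, 7 members rose and 5 fell of 44, where 14% of all genes rose and 12.9% fell (26.9% in all). Without Acacetin 1, 15 rose and 8 fell, where 22.9% of all genes rose and 20.9% fell. The median of the members was 0.16 against 0.08 over all genes. Of the 17 that rose after OGD, 6 were also higher in Acacetin than in Control (Apol9a, Apol9b, Irgm1, Parp12, Oas2 and Trim25) and 11 were not called. Another 4 (Oas3, Isg20, Rsad2 and Ly6a) were not called after OGD and lay lower in Acacetin than in Control, and 21 were called in neither comparison with Control. The shares of all genes with these joint patterns were not computed, and both comparisons use the same Control libraries, so the split is a description.

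**Figure D2:**
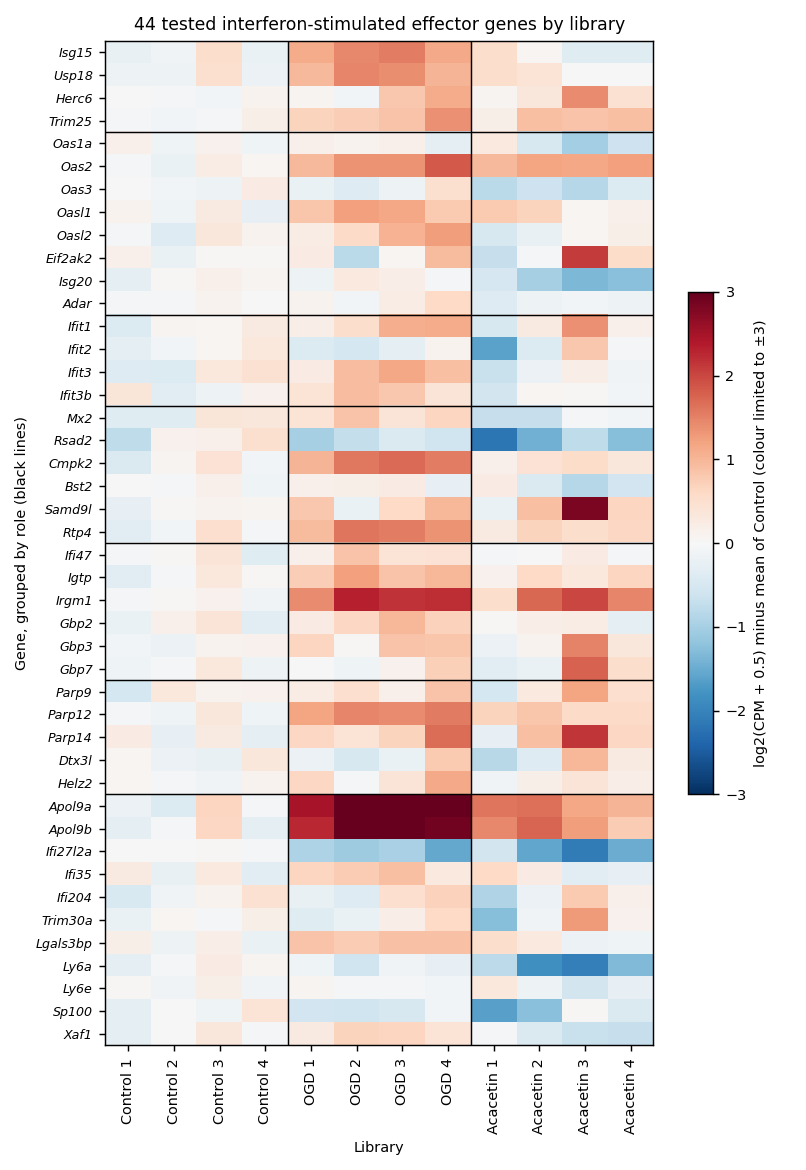
Each row is a tested member and each column a library; the colour is log2(CPM + 0.5) minus the mean of the 4 Control libraries, limited to 3 in either direction, with red higher and blue lower. The OGD columns are red in most rows of the ISG15, GBP and IRG and APOL9 groups, and Acacetin 3 is red in a set of low rows such as Samd9l and Eif2ak2.

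**Figure D3:**
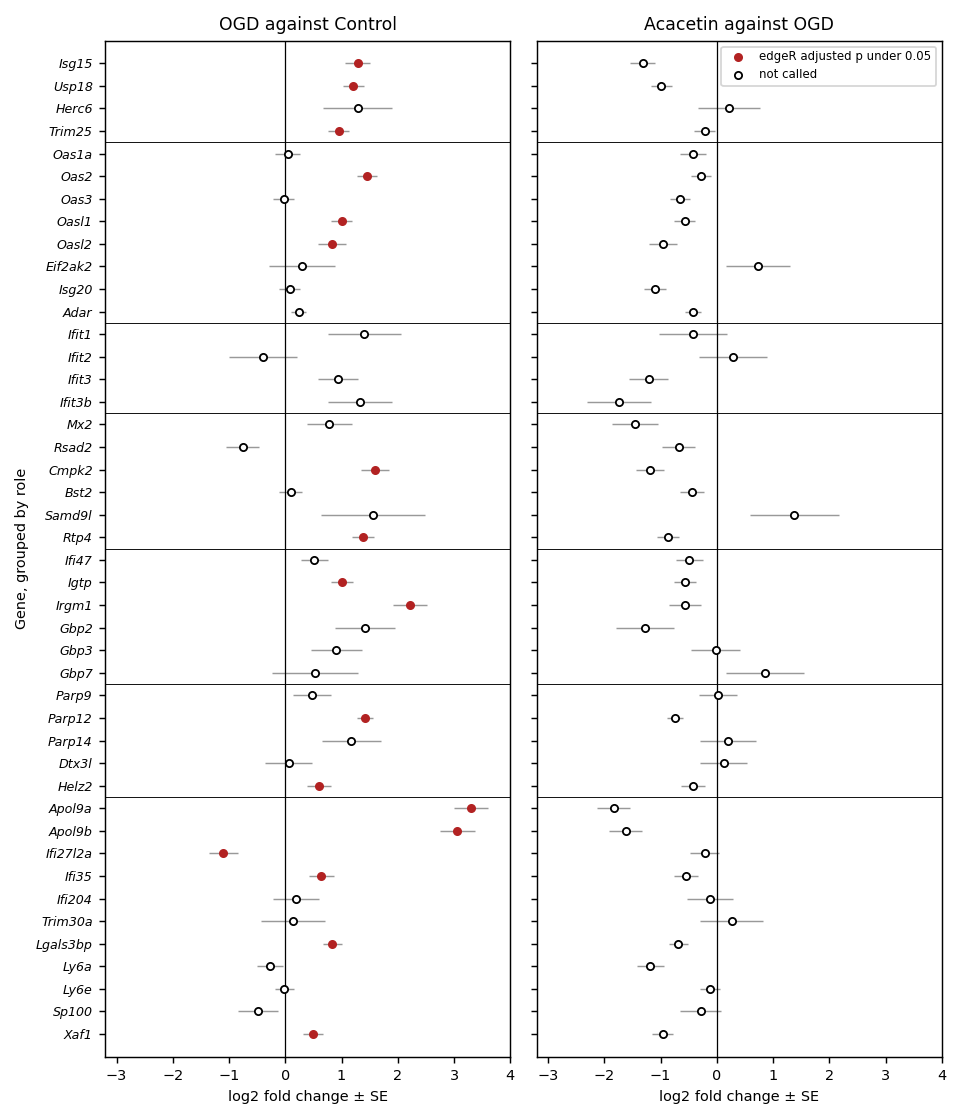
log2 fold changes with SE (bars) for the 44 tested members in OGD against Control (left) and Acacetin against OGD (right), grouped by role; filled points have an edgeR adjusted p under 0.05. There are 18 filled points on the left and none on the right, where 35 of 44 lie below 0.

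In what follows a log2 fold change is given ± SE from the edgeR fit, with 4 libraries in each group, and a value in parentheses after it is the adjusted p of edgeR's quasi-likelihood test unless DESeq2 is named. Levels and means are listed for Control, then OGD, then Acacetin.

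The ISG15 conjugation genes had a median log2 fold change of 1.25 in OGD against Control, and 3 of 4 rose. Isg15, the ubiquitin-like modifier itself, stood at 35.4, 38.6, 59.4 and 35.8 CPM in Control, 89.2, 113, 121 and 91.7 in OGD and 60.1, 42.7, 31.9 and 31.99 in Acacetin. All OGD values lay above all others, and only Acacetin 1 was above the highest Control library. The log2 fold change was 1.29 ± 0.22 in OGD against Control (edgeR adjusted p = 0.000931) and -1.31 ± 0.22 in Acacetin against OGD (0.128, and 0.000121 by DESeq2). Acacetin against Control gave -0.02 ± 0.22 with a 95% interval from -0.50 to 0.45. Usp18, the protease that removes ISG15 and also damps IFNAR signalling, followed the same order with 65.0, 64.0, 99.7 and 63.8 CPM, 142, 199, 190.0 and 146 and 103, 95.2, 71.4 and 72.6. Its OGD libraries lay above all others, by 1.21 ± 0.19 over Control (0.000491), with -0.98 ± 0.19 in Acacetin against OGD (0.182, DESeq2 0.00249) and 0.23 ± 0.19 against Control (-0.17 to 0.63).

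Trim25, a ubiquitin and ISG15 ligase that activates RIG-I, was higher than Control in both treated groups. It stood at 33.5, 32.5, 32.7 and 38.9 CPM in Control, 55.0, 58.0, 62.6 and 90.1 in OGD and 38.7, 64.0, 62.0 and 64.7 in Acacetin, where Acacetin 1 alone was close to Control. The log2 fold changes were 0.95 ± 0.19 in OGD (0.00203) and 0.74 ± 0.19 in Acacetin (0.0106), both against Control, and -0.21 ± 0.19 between the treated groups (0.862). On log2(FPKM + 1) with limma neither rise was called (adjusted p = 0.111 and 0.0836). Herc6, the mouse ISG15 ligase, was read at means of 0.237, 0.592 and 0.674 CPM and was not called. With thinned counts it was called higher than Control in both treated groups, and without Acacetin 1 in Acacetin.

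In the group of 8 RNA-acting enzymes and PKR, 3 rose after OGD, Oas2 and the OAS-like genes Oasl1 and Oasl2, and none fell. The active synthetases of the OAS family make 2-5A from ATP on double-stranded RNA, which activates RNase L. Oas2 stood at 7.90, 7.18, 9.68 and 8.59 CPM in Control, 16.8, 22.0, 21.7 and 31.0 in OGD and 16.7, 19.4, 19.0 and 20.2 in Acacetin. Both treated groups lay above Control without overlap, by 1.46 ± 0.18 (0.000174) and 1.17 ± 0.18 (0.00068), and Acacetin against OGD gave -0.28 ± 0.18 (0.829). Oasl1, which holds back translation of Irf7, stood at 179, 152, 199 and 139, then 294, 392, 368 and 285 and 284, 263, 172 and 183 CPM. In CPM, OGD lay above both other groups, though OGD 4 (284.9) and Acacetin 1 (284.2) were nearly equal. On FPKM, OGD 3 (79.99) lay below Acacetin 1 (80.88) and Acacetin 2 (91.74). The log2 fold change was 1.00 ± 0.19 over Control (adjusted p = 0.00162) and -0.57 ± 0.19 in Acacetin against OGD (0.811). Acacetin against Control gave 0.43 ± 0.19 (0.103). That was called with limma on the 2 FPKM scales (0.0138 and 0.0141), with the length trend removed (0.0264) and without Acacetin 3 (0.0446).

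Oasl2 was the less firm of these calls. Its levels were 8.47, 6.55, 11.3 and 9.42 CPM in Control, 10.3, 13.2, 18.6 and 21.6 in OGD and 6.13, 7.48, 9.12 and 9.99 in Acacetin, with an overlap between Control 3 and OGD 1 (0.83 ± 0.25, 0.0225). The call was lost without Control 1, 2 or 4 or OGD 3 or 4 (adjusted p = 0.0578 to 0.0882) and on the 2 FPKM scales (0.221 and 0.224). Acacetin lay below OGD in every library for Oasl2 (-0.96 ± 0.25, 0.589).

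Oas3 and Isg20 were not called after OGD and were lower in Acacetin than in Control. Oas3 stood at 53.8, 51.6, 49.0 and 64.5 CPM in Control, 47.1, 41.9, 48.9 and 76.4 in OGD and 31.0, 35.2, 29.8 and 40.7 in Acacetin, which lay below every library of the other groups. The log2 fold change was -0.03 ± 0.18 in OGD against Control (0.926), -0.68 ± 0.18 in Acacetin against Control (0.0141) and -0.65 ± 0.18 between the treated groups (0.695). The Acacetin call for Oas3 was lost without Control 4 (0.0643) and on log2(FPKM + 1) (0.244). Isg20, an exonuclease that degrades single-stranded RNA, stood at 24.4, 30.5, 33.0 and 31.2, then 26.6, 36.3, 34.2 and 28.9 and 20.9, 14.6, 11.3 and 12.1 CPM. All 4 Acacetin libraries lay below the other 8, by -1.02 ± 0.19 against Control (0.00198) and -1.10 ± 0.19 against OGD (0.136, DESeq2 0.000121), while OGD against Control gave 0.08 ± 0.19 (0.802).

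The remaining enzymes were not called against Control in the edgeR fit of all 12 libraries without a block or length adjustment. Adar, which edits adenosine to inosine in double-stranded RNA, stood at 42.1, 42.0, 47.8 and 44.5 CPM in Control, 47.6, 41.7, 51.5 and 66.6 in OGD and 33.7, 39.4, 41.5 and 39.9 in Acacetin, a difference of 0.23 ± 0.14 for OGD (0.241) and -0.19 ± 0.14 for Acacetin (0.331) over Control and -0.42 ± 0.14 in Acacetin against OGD (0.818). Eif2ak2, which encodes PKR, stood at 2.41, 1.78, 2.22 and 2.19, then 2.62, 0.999, 2.27 and 4.58 and 1.14, 2.04, 10.9 and 3.36 CPM. Acacetin 3 was far above the others for this gene, and no fold change was called in that fit (0.29 ± 0.58 in OGD against Control, 0.755, and 0.73 ± 0.57 in Acacetin against OGD, 0.848). In Acacetin against Control, Eif2ak2 was called higher without Acacetin 1 (1.33, 0.0421) and Adar lower with the length trend removed (-0.34, 0.0424). Oas1a, an active 2-5A synthetase, was the enzyme with the highest level per length, at means of 109, 102 and 88.5 FPKM in Control, OGD and Acacetin. Without Acacetin 1, alone or together with Acacetin 3, Oas1a was called lower in Acacetin than in Control.

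The 4 IFIT genes, whose proteins bind viral RNA ends and translation factors, were low, and none was called in the unblocked edgeR fit of all 12 libraries. Ifit3 stood at 1.11, 1.08, 2.10 and 2.39 CPM in Control, 1.96, 3.45, 4.14 and 3.41 in OGD and 0.807, 1.34, 1.90 and 1.45 in Acacetin. OGD 1 lay within the Control range, and all 4 Acacetin values lay below OGD (0.94 ± 0.35 and -1.21 ± 0.35, adjusted p = 0.059 and 0.712). With the replicate number as a block Ifit3 was called higher in OGD (0.012), as was Ifit1 (0.0278). With only the 8 Control and OGD libraries edgeR called Ifit1 (0.0234), Ifit3 (0.0335) and Ifit3b (0.0359) higher, and Ifit3 was also called by DESeq2 (0.0477) and without OGD 1 (0.0341). Ifit1 stood at 0.123, 0.373, 0.357 and 0.498, then 0.442, 0.699, 1.25 and 1.30 and 0.0950, 0.495, 1.62 and 0.420 CPM, and its groups overlapped (1.40 ± 0.65 in OGD, 0.124, and -0.42 ± 0.60 in Acacetin against OGD, 0.924). Ifit3b, a near copy of Ifit3 whose reads the counting may have split, stood at 0.450, 0.0830, 0.159 and 0.299, then 0.474, 0.899, 0.781 and 0.455 and 0, 0.262, 0.247 and 0.194 CPM. OGD lay above both other groups without overlap, by a fitted 1.33 ± 0.57 over Control (0.0943) and with -1.73 ± 0.57 in Acacetin against OGD (0.811). Ifit2 averaged 1.18, 0.891 and 1.07 CPM.

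Of the other direct antiviral effectors 6 of 8 were tested, and 2 rose after OGD. Cmpk2, a mitochondrial nucleotide kinase, stood at 1.88, 2.90, 3.85 and 2.52 CPM in Control, 6.0, 9.04, 9.92 and 8.74 in OGD and 3.09, 3.84, 4.23 and 3.59 in Acacetin. OGD was above all 8 other libraries, with 1.59 ± 0.25 over Control (0.000533) and -1.19 ± 0.25 in Acacetin against OGD (0.249, DESeq2 0.00458). Rtp4, a chaperone of receptors that is induced by interferon, stood at 8.31, 10.1, 15.4 and 10.3, then 21.1, 33.6, 32.03 and 28.1 and 13.1, 17.3, 15.6 and 16.7 CPM. It showed the same order, 1.38 ± 0.20 (0.000347) and -0.87 ± 0.20 (0.342), with 0.51 ± 0.20 left in Acacetin against Control (0.0727). Rtp4 was called higher in Acacetin than in Control with the replicate block (0.0167) and with the length trend removed (0.0397). The same call was made without Control 3 (0.0179), without Acacetin 1 (0.0295) and without Acacetin 1 and 3 (0.0466).

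Rsad2 was not called after OGD in the unblocked edgeR fit of all 12 libraries and was lower in Acacetin than in Control. It encodes viperin, which makes a chain-terminating nucleotide from CTP, and its gene lies beside Cmpk2 in the genome. It stood at 15.3, 28.9, 29.1 and 36.8 CPM in Control, 12.9, 15.8, 19.4 and 17.3 in OGD and 5.41, 9.43, 15.3 and 10.5 in Acacetin. Every Acacetin library lay below every Control library, Acacetin 3 by a narrow margin, and the fold change against Control was -1.43 ± 0.30 (0.00345). OGD against Control gave -0.76 ± 0.29 (0.0668), which was called lower with the replicate number as a block (-0.70, 0.00855), with only the 8 libraries compared (0.0135), with the length trend removed (0.0413), by DESeq2 (0.0495) and without Control 1, Acacetin 1 or Acacetin 3. Acacetin against OGD gave -0.68 ± 0.29 (0.829).

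Mx2, a dynamin-like GTPase, stood at 0.491, 0.498, 1.15 and 1.13 CPM in Control, 1.200, 1.80, 1.17 and 1.49 in OGD and 0.285, 0.291, 0.742 and 0.711 in Acacetin. OGD was above all other libraries at this low level, without a call (0.79 ± 0.40 over Control, 0.159, and -1.45 ± 0.41 in Acacetin against OGD, 0.695). Bst2, or tetherin, which holds budding virions at the membrane, had the highest level per length of all 48 members, with means of 455, 438 and 382 FPKM. In CPM it stood at 480.5, 473, 539 and 440.4 in Control, 537, 547, 572 and 409 in OGD and 571, 359, 267 and 324 in Acacetin. The groups overlapped, and the fold changes were 0.10 ± 0.21 (0.777) and -0.35 ± 0.21 (0.223) against Control and -0.44 ± 0.21 in Acacetin against OGD (0.829). Bst2 was called lower in Acacetin than in Control without Acacetin 1 (-0.61, 0.00601) and without Acacetin 1 and 3 (-0.50, 0.0312).

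Samd9l, an antiviral protein that blocks translation, had its highest level by far in Acacetin 3. It stood at 0.0819, 0.207, 0.238 and 0.232 CPM in Control, 0.695, 0.0999, 0.547 and 0.877 in OGD and 0.0950, 0.786, 4.40 and 0.582 in Acacetin. Its call in Acacetin against Control (2.94 ± 0.88, 0.0252) was lost without Acacetin 3 (1.39, 0.141) and without any of Control 1 to 4, and Acacetin against OGD changed sign without that library (1.38 ± 0.79 to -0.17). It was not called in OGD against Control (1.56 ± 0.93, 0.235).

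Mx1 had 3, 3, 6 and 2 reads in Control, 4, 3, 1 and 4 in OGD and 0, 1, 0 and 0 in Acacetin. Ddx60, a helicase that aids RIG-I, had 2, 1, 3 and 5, then 0, 0, 2 and 4 and 0, 2, 9 and 0 reads. Both were under the filter on low counts, as were Ifi44, with 0, 0, 1 and 2, then 1, 3, 8 and 7 and 0, 2, 5 and 4 reads, and Zbp1, a sensor of Z-form nucleic acids that starts necroptosis, with 0, 0, 1 and 1, then 1, 5, 3 and 2 and 0, 3, 1 and 2. With no filter edgeR called 1 of these 4 in 1 comparison, Mx1 lower in Acacetin than in Control (adjusted p = 0.0168), on 1 read over the 4 Acacetin libraries.

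In the interferon-inducible GTPases, which act on vacuoles that hold pathogens and in autophagy, 2 of 6 rose after OGD and the median was 0.96. Irgm1, a regulator of the other IRG proteins, stood at 3.48, 3.73, 4.05 and 3.32 CPM in Control, 10.5, 20.4, 18.2 and 18.7 in OGD and 5.46, 13.0, 16.1 and 10.9 in Acacetin. Control lay below the other 8 libraries, and OGD and Acacetin overlapped. The fold changes were 2.21 ± 0.30 (0.000222) for OGD and 1.65 ± 0.29 (0.00143) for Acacetin over Control, and -0.57 ± 0.28 between them (0.829). Igtp, or IRGM3, stood at 4.83, 6.01, 7.70 and 6.27, then 10.6, 15.04, 11.6 and 12.8 and 6.74, 9.52, 7.69 and 9.92 CPM. OGD was above both other groups without overlap, with 1.01 ± 0.20 over Control (0.00201) and -0.56 ± 0.20 in Acacetin against OGD (0.829). Igtp was called higher in Acacetin than in Control without Acacetin 1 (0.0355) and without Acacetin 1 and 3 (0.0303).

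Gbp2, a guanylate-binding protein that coats vacuoles, stood at only 0.123, 0.290, 0.436 and 0.0663 CPM in Control, 0.347, 0.599, 0.937 and 0.650 in OGD and 0.237, 0.320, 0.330 and 0.0969 in Acacetin. Control 3 overlapped OGD, Acacetin lay below OGD, and neither difference was called (1.42 ± 0.53, 0.0587, and -1.28 ± 0.51, 0.829), though OGD was called with the replicate block (0.0174), with only the 8 libraries compared (0.0388), without Control 3 (0.0251) and without OGD 1 (0.0429). Ifi47, an IRG protein, averaged 3.86, 5.52 and 3.93 CPM. Gbp3 averaged 0.772, 1.46 and 1.42 and Gbp7 0.321, 0.450 and 0.820, each with its highest value in Acacetin 3.

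Of the 5 genes of the PARP, DTX3L and HELZ2 group, 2 rose after OGD. Apart from Helz2, their products add ADP-ribose to proteins or partner those that do. Parp12, a mono-ADP-ribosyltransferase that inhibits viral replication, stood at 21.4, 20.4, 28.4 and 20.4 CPM in Control, 51.7, 62.5, 61.1 and 66.8 in OGD and 36.3, 40.4, 33.7 and 33.9 in Acacetin. The 3 groups did not overlap, with Acacetin between the others. The fold changes were 1.42 ± 0.14 (4.8e-05) and 0.67 ± 0.14 (0.00351) over Control, and -0.75 ± 0.14 in Acacetin against OGD (0.163, DESeq2 0.00249). Helz2, a nuclear helicase and coactivator, stood at 18.8, 17.3, 16.6 and 19.4, then 28.1, 17.1, 23.7 and 39.9 and 16.8, 20.2, 23.6 and 20.7 CPM. OGD 2 lay within Control, and the call (0.60 ± 0.21, 0.0459) was lost without any of Control 1 to 4, OGD 1, 3 or 4 (0.0777 to 0.166), without Acacetin 2 or 4, which enter through the shared spread, and by DESeq2 (0.0589). The Helz2 call was also lost with the size factors of DESeq2 (0.0663), with no filter (0.0763) and on the 2 FPKM scales (0.493 and 0.525).

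Parp14 stood at 1.56, 0.954, 1.59 and 0.929 CPM in Control, 2.18, 1.80, 2.27 and 5.03 in OGD and 0.950, 2.71, 7.09 and 2.17 in Acacetin. OGD lay above Control without a call (1.18 ± 0.52, 0.107), and Acacetin ranged from within Control to above OGD (1.37 ± 0.52 over Control, 0.0634). Acacetin against Control was called by DESeq2 (1.41, 0.0321) and by edgeR without Acacetin 1 (1.67, 0.00792), and OGD against Control with only the 8 libraries compared (0.0152). Parp9, which works with the ubiquitin ligase DTX3L, averaged 4.89, 6.79 and 6.88 CPM, and Dtx3l 3.55, 3.69 and 4.02.

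The largest rises after OGD among the 48 were those of Apol9a and Apol9b, mouse apolipoprotein L genes that interferon induces. Apol9a stood at 2.37, 1.95, 4.60 and 2.65 CPM in Control, 17.5, 34.3, 36.6 and 26.4 in OGD and 9.45, 9.78, 6.76 and 6.14 in Acacetin. The 3 groups did not overlap, and Acacetin lay between the others. The log2 fold change was 3.30 ± 0.31 in OGD (3.11e-05) and 1.47 ± 0.29 in Acacetin (0.00287) over Control. Acacetin against OGD gave -1.84 ± 0.29 (0.0686, DESeq2 2.44e-06), an adjusted p shared with Id3 and Il1b and lower than that of any other gene in that comparison. Apol9b stood at 2.17, 2.61, 4.44 and 2.12, then 14.9, 26.7, 29.5 and 23.6 and 8.31, 10.3, 7.17 and 4.94 CPM. Its order was the same, with 3.06 ± 0.31 (4.8e-05), 1.44 ± 0.30 (0.0035) and -1.62 ± 0.29 (0.138, DESeq2 0.000208). These genes are near copies, so reads may be split between them and they are not independent.

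Ifi27l2a fell after OGD, the only member to do so in the unblocked edgeR fit of all 12 libraries. It encodes a small hydrophobic protein and was the third most abundant member per length, at means of 303, 127 and 127 FPKM. It stood at 167, 163, 169.7 and 159 CPM in Control, 86.5, 79.0, 84.2 and 56.8 in OGD and 112, 55.5, 38.1 and 58.6 in Acacetin. Control lay above the other 8 libraries, and it fell by 1.10 ± 0.25 in OGD (0.00534) and by 1.32 ± 0.26 in Acacetin (0.00237) on the log2 scale, with -0.22 ± 0.25 between the treated groups (0.905).

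Ly6a and Ly6e, surface proteins held by a lipid anchor, belong to 1 gene family. Ly6a stood at 45.1, 53.1, 65.7 and 57.7 CPM in Control, 50.3, 36.0, 51.4 and 46.4 in OGD and 31.5, 15.05, 12.9 and 21.7 in Acacetin. All Acacetin values lay below the other 8, with a log2 fold change of -1.45 ± 0.24 against Control (0.000924) and -1.18 ± 0.24 against OGD (0.222, DESeq2 0.00249), and OGD against Control was not called (-0.27 ± 0.23, 0.431). Ly6e, which blocks coronavirus entry and aids that of other viruses, stood at 1266, 1136, 1388 and 1153, then 1304, 1209, 1211 and 1169.6 and 1529, 1103, 839.6 and 1043 CPM. The groups overlapped, and the fold change in OGD was -0.01 ± 0.18 with a 95% interval from -0.39 to 0.36 (0.964) and -0.13 ± 0.18 in Acacetin against Control (0.599).

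Another 3 of these genes rose after OGD. Lgals3bp, a secreted glycoprotein that binds galectins, stood at 160.4, 127, 162 and 124 CPM in Control, 257, 243, 263 and 260.2 in OGD and 206, 176, 126 and 130.1 in Acacetin. OGD was above all other libraries (0.83 ± 0.17 over Control, 0.00214, and -0.68 ± 0.17 in Acacetin against OGD, 0.407, DESeq2 0.0496). Ifi35 stood at 135, 95.9, 137 and 90.5, then 178, 191, 209 and 139 and 172, 134, 88.8 and 95.2 CPM, with OGD above Control throughout. Its call (0.64 ± 0.22, 0.0407) was lost without Control 2 or 4 or OGD 1, 2 or 3 (0.0699 to 0.118), and without Acacetin 2. Xaf1, which binds the apoptosis inhibitor XIAP, stood at 19.4, 24.1, 30.1 and 22.8, then 28.9, 38.3, 37.5 and 31.7 and 23.0, 17.6, 14.8 and 14.6 CPM. Control 3 overlapped OGD, Acacetin lay below OGD (-0.96 ± 0.18, 0.165, DESeq2 0.0013), and the rise in OGD (0.50 ± 0.18, 0.0493) was lost without Control 1, 2 or 4 or OGD 2, 3 or 4 (0.0606 to 0.139), and without Acacetin 2 or 4. The Xaf1 call was also lost with the size factors of DESeq2 (0.0579), with no filter (0.0644), with a mean of at least 1 CPM (0.0513), with thinned counts (0.0691), with the length trend removed (0.109) and on the 2 FPKM scales (0.226 and 0.231). Xaf1 was called lower in Acacetin than in Control by DESeq2 (0.0481), without Acacetin 1 (0.00842) and without Acacetin 1 and 3 (0.0322).

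The last 3 tested genes were not called in the edgeR fit of all 12 libraries without a block or length adjustment. Ifi204, a DNA-binding PYHIN protein, averaged 2.81, 3.23 and 2.94 CPM in Control, OGD and Acacetin. Trim30a, a TRIM protein, averaged 1.17, 1.29 and 1.53, and Sp100, a nuclear body protein, 5.99, 4.28 and 3.49. In Acacetin against Control, Sp100 was called lower with the replicate block, with the length trend removed and without Acacetin 3, alone or together with Acacetin 1.

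**Figure D4:**
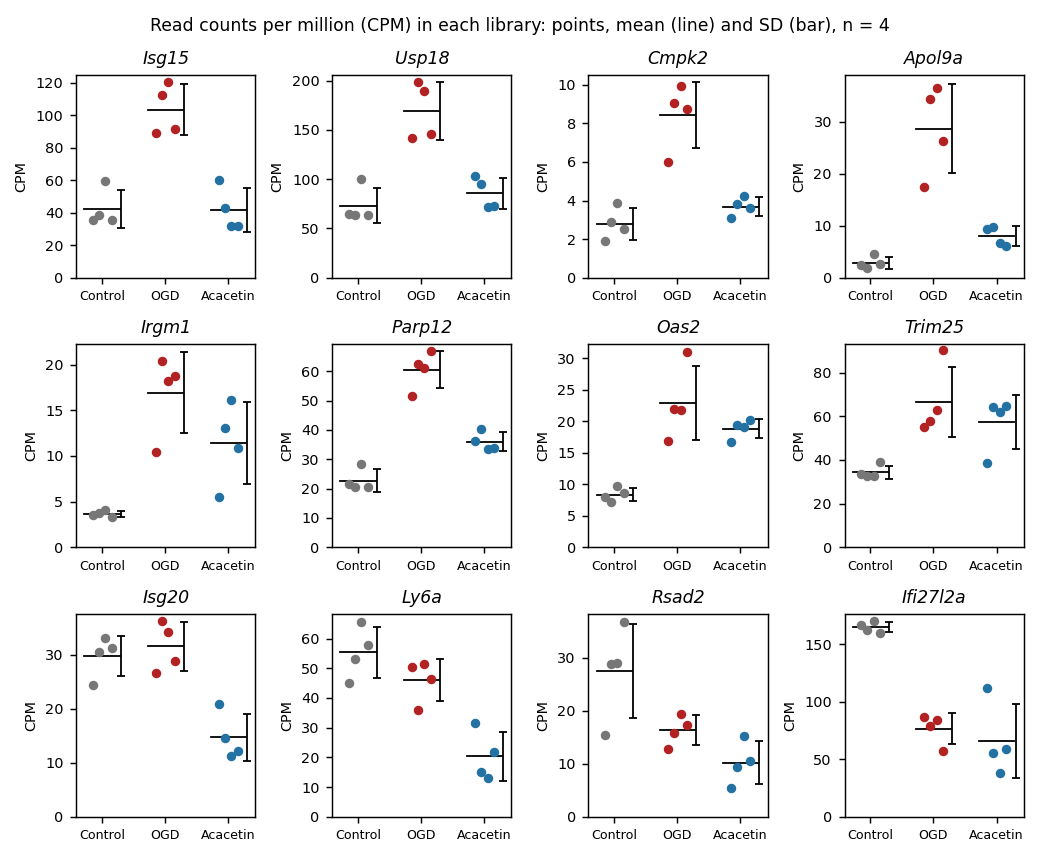
CPM of 12 members in each of the 12 libraries, by group, with the mean (line) and SD (bar) over 4 libraries; every vertical axis starts at 0. Isg15, Usp18 and Cmpk2 are high in OGD alone, Oas2, Trim25 and Irgm1 are high in both treated groups, Isg20 and Ly6a are low in Acacetin, and Ifi27l2a is high in Control.

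In 12 members OGD lay above Control and Acacetin below OGD, both without overlap (over all genes 19% lay above Control in OGD and 1.88% below OGD in Acacetin): Isg15, Usp18, Oasl1, Ifit3b, Mx2, Cmpk2, Rtp4, Igtp, Parp12, Apol9a, Apol9b and Lgals3bp. The share of all genes that met both conditions was not computed, and both use the same OGD libraries, so this count is a description. Of 24 members with a mean of at least 10 CPM, 15 rose and 1 fell after OGD, all 24 lay below 0 in Acacetin against OGD, and 14 did so without overlap. Of 20 below that level 2 rose, and 9 lay above 0 in Acacetin against OGD. Over all genes tested, at any level, 16.2% rose and 12.6% fell after OGD, and 52.5% lay below 0 in Acacetin against OGD. The shares of all genes within each level were not computed, so the split by level is a description. The median fold change in OGD was 0.74 in the first set and 0.85 in the second. Per length, 3 of 48 had a mean of at least 100 FPKM, 11 at least 10 and 28 at least 1.

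All 9 members above 0 in Acacetin against OGD had their highest Acacetin value in Acacetin 3. That library gave the highest Acacetin value for 22 of 44 members, with a median implied gene length of 5358 bases and a median level of 2.71 CPM. The 12 members highest in Acacetin 1 had a median of 2168 bases and 124 CPM. Over all genes tested, Acacetin 3 was highest in 28% and Acacetin 1 in 42.2%. With the trend on length removed, 16 members rose and 2 fell in OGD against Control, where 16.9% of all genes rose and 16.1% fell, and 2 were called lower in Acacetin against OGD, of 4 genes lower and none higher in all. Control 3 was the highest Control library for 27 of 44 members, against 21.2% of all genes. The part of gene length in single fold changes beyond this was not tested.

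With the OGD libraries of high 18S share (2 and 3) left out, 14 members rose and 1 fell in OGD against Control, where 8.53% of all genes rose and 6.75% fell, and 15 of the 18 calls were kept. Xaf1, Oasl2 and Ifi35 were lost. The median was 0.82. Within Acacetin, leaving out replicates 1 and 3 gave 3 members lower than in OGD (Isg15, Isg20 and Ly6a), of 4 genes lower and none higher in all.

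The response element was set beside the fold changes. Of 16 tested members with GAAANNGAAA before the start, 5 rose after OGD, with a median log2 fold change of 0.98. Of 18 with an entry and no match, 9 rose, with a median of 0.62. In Acacetin against OGD the medians were -0.61 and -0.46. These values are a description, since no test of the difference was made and the members were chosen by other means.

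Of the genes that make and carry the interferon signal, a minority of each list was called, as of all genes tested. In OGD against Control 16.2% of all genes rose and 12.6% fell, 28.8% in all. The counts of these short lists are a description, and no list was tested against that share. Of 10 interferon ligands 3 had a row and none was tested, with Ifnb1 at means of 0.204, 0.312 and 0.0781 CPM in Control, OGD and Acacetin. Of 6 receptor chains 1 rose and 1 fell after OGD: Il10rb, shared by the interferon lambda receptor (log2 fold change of 0.36 ± 0.12, 0.0424), and Ifnar2 (-0.47 ± 0.13, 0.0132). Of 12 signalling genes and transcription factors 2 rose and 2 fell. Irf1 gave 0.75 ± 0.14 (0.00136) and Irf9 0.44 ± 0.14 (0.0352), while Tyk2 gave -0.99 ± 0.18 (0.00128) and Irf8, a myeloid factor, -1.01 ± 0.17 (0.000656).

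Of 11 nucleic acid sensing genes 3 rose and none fell after OGD. They were the endosomal receptors Tlr7 (1.56 ± 0.53, 0.0403) and Tlr9 (1.33 ± 0.30, 0.00451) and Sting1, the adaptor of cGAS (0.91 ± 0.18, 0.00219). Of 8 negative regulators and partner enzymes 1 rose: Socs1, which inhibits JAK kinases (1.36 ± 0.25, 0.00121). None of the genes of these lists was called in Acacetin against OGD, where edgeR called 0% of all genes. In Acacetin against Control 14% of all genes rose and 12.9% fell, 26.9% in all. There 1 receptor chain fell, 1 signalling gene rose and 3 fell, and 2 sensing genes rose and 1 fell. Among the partner enzymes 1 fell, Uba7, which activates ISG15 (-0.54 ± 0.16, 0.0251). Those lower in Acacetin than in Control included Irf7, the factor that amplifies interferon output (-0.73 ± 0.18, 0.00903), and Dhx58, which encodes the sensor LGP2 (-1.10 ± 0.16, 0.000592), while neither was called in OGD (0.14 ± 0.18, 0.614, and -0.36 ± 0.16, 0.112). Irf7 stood at means of 206, 226 and 124 CPM. Irf9, Irf7, Dhx58 and Uba7 were named after their values were seen.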

How the data were processed

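Stranded mRNA libraries of 12 BV2 samples (paired 150-base reads, per the labels' protocols) were deposited as a table of raw read counts per gene and a table of FPKM values. The build GRCm39 and the tools HISAT2, DESeq2 and bcl2fastq are listed, without their roles, in the submitters' processing notes; the counting tool, the annotation and whether strand was used are not given in the sources used here, so reads of overlapping genes and near copies may be shared. The authors' deposited counts were fitted with edgeR 4.0.16 in R 4.3.3 (TMM, filterByExpr with a minimum count of 10, quasi-likelihood test, two-sided, all 12 libraries in 1 fit, Benjamini-Hochberg over 13249 genes, called at an adjusted p under 0.05); DESeq2 1.42.0 and limma 3.58.1 on log2(FPKM + 1) and log2(FPKM + 0.1) were alternatives. The authors' deposited FPKM served for levels per length and, with the counts, for the gene length they imply. Scripts were tested on simulated data. The libraries held 16427886 to 32693066 counts, and rRNA and length trends were measured in each. Groups come from the labels.

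The members, pathway lists and alternatives were chosen with earlier results of these data known. Every library's value was given for 27 members by rule: 18 set by name where tested, the largest change of each role group in OGD against Control and in Acacetin against OGD, and every member called lower in OGD, higher in Acacetin against OGD, or either way in Acacetin against Control. Another 6 (Oasl1, Oasl2, Helz2, Ifi35, Lgals3bp and Xaf1) were named after their values were seen, because they were called. Same-numbered Control and OGD libraries deviated together from their group means (correlations of 0.11 to 0.57 over genes). However, OGD 2 matched Control 3 (0.31) better than Control 2 (0.18), and OGD 3 matched Control 2 (0.13) better than Control 3 (0.11). Over all groups 5 of 12 libraries correlated best with their own number. A pairing by number is thus neither given by the labels nor settled by the data, and the replicate block is only an alternative. Same-numbered correlations were -0.14 to 0.45 for OGD and Acacetin and -0.34 to 0.51 for Control and Acacetin. Promoter stretches come from RefSeq on GRCm38.p6. Alternatives were other scaling, filters, thinned counts, removal of the length trend, a replicate block, and leaving out libraries.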

Additional observations from a re-analysis of the deposited data

Results flagged for a closer look

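Within groups of 4 libraries, 8 of 132 sets of member values had a library far from the other 3 by Dixon's test at the 95% level, where chance gives about 1 in 20. Control 3 was high for Isg15 (59.4 CPM, the others at most 38.6), Usp18 (99.7, at most 65.0) and Parp12 (28.4, at most 21.4). Trim25 was high in Control 4 (38.9, at most 33.5) and low in Acacetin 1 (38.7, the others at least 62.0). OGD 4 was low for Oas1a (199.8, at least 259.98) and high for Parp14 (5.03, at most 2.27). Acacetin 3 was high for Samd9l (4.40, at most 0.786).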

How the results depend on the processing

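Over all alternatives, 1722 values for single members kept their direction and their side of the threshold, 65 gained a call, 55 lost one and 47 changed sign, and 160 counts and medians of the list moved little against 20 that moved. The changes of sign fell on 18 fold changes that were not called and were mostly near 0, and the cause of each change given here was not tested. For OGD against Control, 10 members rose under a further limit of 1 on the size of the log2 fold change. The share of all genes under that limit was not computed. The members that fell were 2 by DESeq2, with only the 8 libraries compared, with the replicate block and with the length trend removed, and 1 to 2 with a library left out. Of all genes 13.3% fell by DESeq2, 17% with the 8 libraries, 15.5% with the block and 16.1% with the length trend removed. Those that rose were 13 to 17 with a Control or OGD library left out, and 14 to 21 with an Acacetin library left out, which enters only through the shared spread (20 without Acacetin 1, 21 without Acacetin 3 and 24 without both). Calls over all genes moved too, from 16.2% higher with all libraries to 11.8% to 15.4% with a Control or OGD library left out. Of all genes 19.4% rose without Acacetin 1, 18% without Acacetin 3 and 20.7% without both. With only the 8 libraries compared 23 rose, adding Ifit1, Ifit3, Ifit3b, Gbp2, Gbp3 and Parp14, where 21% of all genes rose and 17% fell. The replicate block, whose pairing by number is not settled, gave 20 higher, where 19% of all genes rose. It added Ifit1, Ifit3 and Gbp2 as higher and Rsad2 as lower, and changed no other call among members in that comparison. The median was 0.59 with a mean of at least 1 CPM, 0.17 on log2(FPKM + 1) and 0.47 on log2(FPKM + 0.1), scales on which the median of all genes shifted to -0.04 and -0.11, and higher calls over all genes were 32.2% of calls on the first against 56.3% with edgeR on counts. For Acacetin against OGD, the members called lower were 10 of 29 genes by DESeq2, 6 of 8 genes with no filter and 2 of 4 genes with thinned counts. With the length trend removed they were 2 of 4 genes, and without Acacetin 1 and 3 they were 3 of 4 genes. With a library left out they were 0 to 5 (5 of 9 genes without Acacetin 1). The replicate block gave none there, and the correlations of same-numbered libraries of these groups were mixed (-0.14 to 0.45). The median was -0.19 and -0.27 on the 2 FPKM scales, where all genes shifted to 0.16 and 0.24. For Acacetin against Control, with a library left out 6 to 15 members rose and 4 to 8 fell (15 and 8 without Acacetin 1), and 8 fell without Acacetin 1 and 3. Over all genes 8.8% to 22.9% rose and 9.06% to 20.9% fell with a library left out, and 14.3% fell without Acacetin 1 and 3. Signs changed as follows. In OGD against Control, without OGD 2 and 3, values were 0.19 for Oas3, -0.099 for Isg20, -0.034 for Bst2 and 0.00081 for Ly6e, and on the 2 FPKM scales -0.070 and -0.074 for Isg20 and -0.066 and -0.066 for Bst2. In Acacetin against OGD the FPKM scales gave 0.070 and 0.078 for Trim25, 0.026 and 0.042 for Oas2 and 0.14 and 0.14 for Ly6e, and Parp14 gave -0.058 without OGD 2 and 3 and -0.23 without Acacetin 1 and 3. In Acacetin against Control the FPKM scales gave 0.10 and 0.10 for Isg15 and 0.018 and 0.014 for Oasl2. There the removed length trend gave 0.13 for Isg15 and -0.034 for Helz2, and leaving out Acacetin 1 and 3 gave -0.079 for Gbp2 and -0.0014 for Ifi35. With a library left out, the ranges in OGD against Control were -0.25 to 0.071 for Oas3, -0.13 to 0.56 for Eif2ak2, -0.0054 to 0.15 for Isg20 and -0.068 to 0.046 for Ly6e. In Acacetin against OGD they were -0.27 to 1.15 for Eif2ak2, -0.17 to 1.74 for Samd9l, -0.54 to 0.65 for Parp14 and -0.30 to 0.0020 for Ly6e. In Acacetin against Control they were -0.25 to 0.19 for Isg15, -0.25 to 0.0065 for Oasl2, -0.47 to 0.014 for Ifit3, -0.68 to 0.018 for Ifit3b, -0.14 to 0.66 for Gbp2 and -0.11 to 0.22 for Ifi35.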
